A study of Mus musculus with 14 samples.

Results

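The genes described here are 38 core components of the spliceosome, of 54446 genes in the deposited table. They were chosen by symbol from a fixed list of U1, U2, tri-snRNP, Prp19 complex and associated RNA-binding proteins. No measured value was a criterion, but the list was made with earlier results of these data known. All 38 were found, with 256 annotated transcripts between them. They fall into 7 roles: 3 U1 proteins, 7 Sm ring proteins, 11 U2 proteins, 3 branch point and 3′ splice site factors, 8 proteins of the U4/U6.U5 tri-snRNP, 3 Prp19 complex members and 3 RBM factors. Their RNA was followed in hepatocytes that had lost Srsf1, an SR protein that binds exonic RNA and helps the spliceosome choose splice sites.

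The spliceosome is rebuilt on each intron. U1 pairs with the 5′ splice site, while SF1 and the U2AF heterodimer mark the branch point and the 3′ splice site until U2 replaces SF1 there. The U4/U6.U5 tri-snRNP then joins, U1 and U4 leave, and the Prp19 complex stabilises the catalytic form. The Sm proteins form a ring on the U1, U2, U4 and U5 RNAs. SR proteins are known to help recruit U1 and U2AF to weak sites, and many genes for splicing factors carry poison exons or retained introns through which their RNA is diverted from the coding form.

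The libraries were polyA-selected and stranded, from purified hepatocytes of C57BL/6 mice. HKO animals carried srsf1f/f with albcre+/-, in which an albumin-driven Cre deletes the floxed gene in the hepatocyte lineage during development, and gave 2 libraries at postnatal day 10 (P10) and 2 at 1 month. Their controls carried albcre+/- and no stated floxed allele, with 2 libraries at each age, so that knockout and the floxed line cannot be told apart. The acute knockouts (acHKO) were srsf1f/f mice given an AAV8 vector with iCre under the hepatocyte promoter TBG at 8 weeks of age and sampled at 10 weeks. Their controls were srsf1f/f mice of the same age given TBG-driven GFP, with 3 libraries in each group. Only the knockouts of that model received a recombinase. The labels do not state that replicates are separate animals, so p-values measure the spread between libraries, which may be technical. Only for HKO at P10 do the Xist values given below differ too widely between the 2 libraries for technical copies of 1 sample. The labels give no sex. The labels call the later HKO age 1 month and tag those library names 5wk.

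Levels are given as rescaled TPM. TPM are shares of a library corrected for transcript length, summed here over the transcripts of a gene and divided by a median-ratio factor per library, which ranged from 0.683 to 1.64. The sequencing depth behind TPM is unknown. On this scale Srsf1 had 18.2 and 15.4 in HKO and 33.6 and 35.4 in control libraries at P10, 10.2 and 8.49 in HKO and 26.9 and 20.4 in control libraries at 1 month, and 4.87, 7.52 and 6.08 in acHKO and 20.4, 30.7 and 27.4 in GFP libraries. Each comparison had Srsf1 lower in every knockout library. The hepatocyte marker Alb had at least 19437 TPM as deposited in every library. Libraries also stood apart in other ways. Replicate 2 of HKO at P10 had 74.7 TPM of Xist, against at most 0.0147 TPM in any other library, and its erythroid markers summed to 2079 TPM, against 322 TPM in the other HKO library and 152 and 247 TPM in the P10 controls. Mitochondrially encoded RNA took 33.5 to 42.9% of TPM in acHKO and 11.8 to 16.1% in GFP libraries, and 50.6% in replicate 1 of HKO at 1 month. Libraries of the HKO model carry single index sequences in their labelled names and those of the acute model dual ones, so model and library preparation cannot be told apart.

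Across all 14 libraries the members averaged between 2.25 and 62.4 rescaled TPM per gene. The highest were Rbm39, a U2AF-related RNA-binding protein, at 62.4, the Sm protein gene Snrpe at 50.4 and the branch point binding protein gene Sf1 at 42.6. The lowest were Prpf4, a U4/U6 protein, at 2.25, and the U2 protein genes Sf3b5 at 2.58 and Sf3a1 at 3.84. Rbm39 had 66.7 and 80.9 in HKO and 81.8 and 78.5 in control libraries at P10, 62.4 and 47.4 in HKO and 73.3 and 63.9 in control libraries at 1 month, and 47.4, 68.8 and 54.2 in acHKO and 42.6, 52.3 and 53.2 in GFP libraries. Sf1 lay between 36.8 and 49.9 in every library and Sf3b5 between 2.18 and 3.45, both with overlapping groups in the HKO model at 1 month. The summed level of the 38 genes was 719 and 798 in HKO and 678 and 681 in control libraries at P10. It was 595 and 577 in HKO and 592 and 607 in control libraries at 1 month, and 582, 620 and 568 in acHKO and 558, 628 and 581 in GFP libraries. The sum was thus higher in knockouts only at P10, and the groups overlapped at the other ages.

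At P10, 4 of the 38 members were higher in HKO hepatocytes and none was lower in limma's test with Benjamini-Hochberg adjustment over 11736 genes (threshold 0.05). Over all genes 8.97% were called higher and 16.8% in either direction, and 7.86% lower, so the members' count of 4 is near the background. The 4 genes were Eftud2 and Prpf31 of the tri-snRNP, the Sm gene Snrpf and the U2 gene Snrpb2. The median log2 fold change was 0.15 over the members, 30 of which were above 0, against 0.02 over all genes tested.

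Eftud2, which encodes the GTPase of the U5 particle, had 9.93 and 10.2 in HKO and 6.99 and 7.83 in control libraries at P10. Its log2 fold change was 0.40 ± 0.09 (SE, limma adjusted p = 0.0265). Prpf31, whose product bridges the U4/U6 and U5 particles, had 6.26 and 6.36 in HKO and 4.14 and 4.77 in control libraries. Both genes were thus higher in each HKO library than in each control, and Prpf31 differed by 0.42 ± 0.09 on the log2 scale (limma adjusted p = 0.0279). On protein-coding transcripts alone the difference in Prpf31 was 0.22 and did not pass (limma adjusted p = 0.13), and its other transcripts took 28.1% of the gene in HKO and 15.7% in control libraries. Snrpf had 22.0 and 27.5 in HKO and 17.6 and 18.1 in control libraries, a log2 fold change of 0.44 ± 0.11 (limma adjusted p = 0.0433). The HKO library with more Snrpf was replicate 2, the one with Xist and the erythroid markers. Snrpb2, which encodes the U2 protein B″ that binds U2 RNA beside Snrpa1, had 14.1 and 15.1 in HKO and 11.3 and 10.6 in control libraries, with no overlap and a log2 fold change of 0.38 ± 0.10 (limma adjusted p = 0.0497).

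These calls at P10 rested on all 4 libraries of the comparison. Leaving out replicate 2 of HKO, replicate 1 of the controls or replicate 2 of the controls each left 0 members called, and leaving out replicate 1 of HKO left 2, although the fold changes of the 4 genes stayed between 0.29 and 0.59. With TPM scaled to nuclear protein-coding genes 24 members were called higher and none lower, where 35.3% of all genes were called in either direction. That share was not split by direction, so the one-sided count has no like share beside it. With TPM as deposited, where the median gene shifted by 0.25, 2 members were called higher, Prpf31 and Snrpg, and none lower (12.7% of all genes in either direction, 10.8% higher and 1.87% lower). At P10 the authors' deposited table had 7 members higher and 1 lower, where 13.4% and 11.8% of all genes were. The 7 included all 4 genes above with Sf3b4, Rbm25 and Snrpg, and the lower one was Prpf8. Counted without a test, 26 members were higher in both HKO libraries than in both controls and 5 were lower, where 38.1% and 33.7% of all genes did the same. The markers of cycling cells summed to 200 to 229 TPM in HKO and 127 to 135 TPM in control libraries at P10, all 8 of them above 0 on the log2 scale and 3 called higher. Hepatocyte markers summed to 59651 to 75765 TPM in HKO and 107752 to 112910 TPM in control libraries. Of these 10 markers 4 were called lower and 1 was above 0. Among the markers tested, 1 of 3 for cholangiocytes, 1 of 8 for macrophages and 1 of 6 for stellate cells were called higher. The part of these shifts in the members' levels was not tested.

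In the roles without a called member at P10, the member with the largest difference was Snrpc in U1 (0.30 ± 0.09), U2af1 among the 3′ splice site factors (0.18 ± 0.11), Prpf19 in the Prp19 complex (0.22 ± 0.12) and Rbm25 among the RBM factors (0.45 ± 0.16). Their limma adjusted p-values were 0.0756, 0.327, 0.263 and 0.111. Snrpc had 22.4 and 23.1 in HKO and 18.8 and 17.8 in control libraries, U2af1 37.4 and 44.3 in HKO and 35.6 and 36.2 in controls, and Rbm25 21.6 and 27.2 in HKO and 17.5 and 17.6 in controls. These groups did not overlap, but the spread within HKO was wide for U2af1 and Rbm25. Prpf19, whose product gives its complex its name, had 28.4 and 28.9 in HKO and 25.2 and 23.7 in control libraries. The largest fold change of any member was 0.49 ± 0.13 for Sf3b4 of the SF3b complex, with a limma adjusted p of 0.0536.

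**Figure D1:**
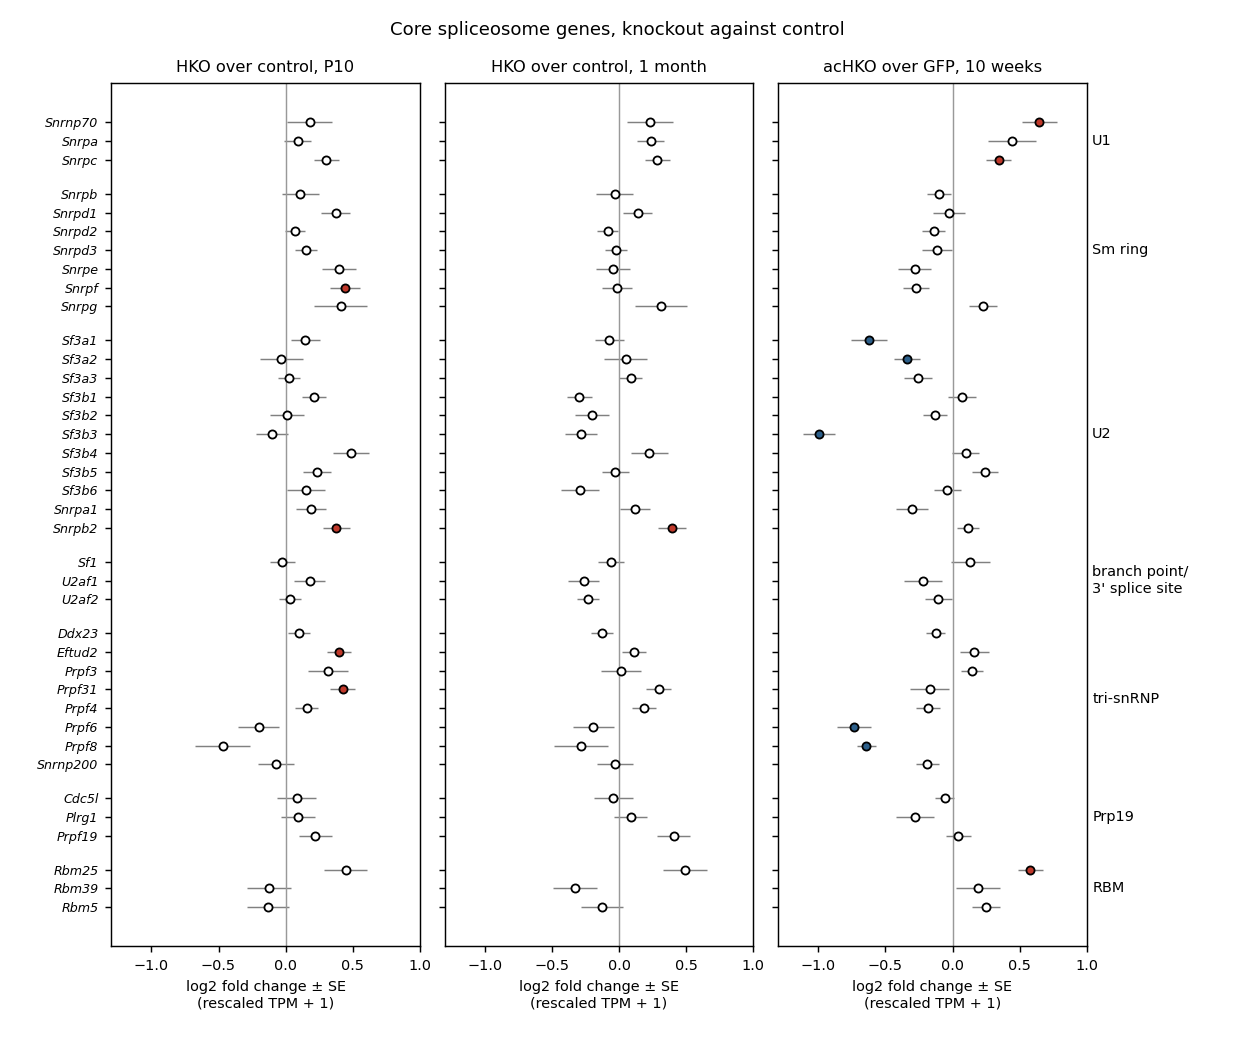
Log2 fold changes (x axis, ± SE, on rescaled TPM + 1) of the 38 genes by role (y axis) for HKO over control at P10, HKO over control at 1 month and acHKO over GFP at 10 weeks. Filled points passed limma's adjusted p of 0.05 (red higher, blue lower): 4 higher at P10, 1 higher at 1 month, and 3 higher and 5 lower in the acute model.

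At 1 month, 1 of the 38 members, Snrpb2, was higher in HKO hepatocytes and none was lower, with 8.66% of all genes called higher, 7.24% lower and 15.9% in either direction. The members' median log2 fold change was -0.03 (17 of 38 above 0), against 0.01 over all genes. Snrpb2 had 8.52 and 9.36 in HKO and 6.09 and 7.06 in control libraries, and differed by 0.39 ± 0.10 (limma adjusted p = 0.0455). It was thus higher in the HKO libraries at both ages, which have separate controls. The 2 comparisons differed in the form of the RNA. On protein-coding transcripts alone the difference in Snrpb2 was -0.15 at 1 month (limma adjusted p = 0.359) and 0.43 at P10 (limma adjusted p = 0.0286). At 1 month its other transcripts had 5.13 and 5.86 in HKO and 1.87 and 3.43 in control libraries, so the higher level lay outside the coding form.

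The call at 1 month was absent in the authors' deposited table, where 0 members passed in either direction and 8.97% of all genes were higher and 4.53% lower, and with TPM as deposited, which called 6.86% of all genes (4.87% higher and 1.99% lower). Counted without a test, 10 members were higher and 8 lower in both HKO libraries than in both controls at 1 month, where 29.3% and 27.5% of all genes were. With TPM scaled to nuclear protein-coding genes 15 members were called higher and none lower, where 32% of all genes were called in either direction, a share not split by direction. The Snrpb2 call was lost when replicate 1 or 2 of HKO or replicate 1 of the controls was left out. The largest difference in each remaining role was Snrpc in U1 (0.28 ± 0.09), Snrpg in the Sm ring (0.31 ± 0.20), U2af1 among the 3′ splice site factors (-0.26 ± 0.11), Prpf31 in the tri-snRNP (0.29 ± 0.09), Prpf19 in the Prp19 complex (0.41 ± 0.12) and Rbm25 among the RBM factors (0.49 ± 0.16). Their limma adjusted p-values lay between 0.0703 and 0.313. Prpf19 had 34.3 and 37.7 in HKO and 23.9 and 30.1 in control libraries, Rbm25 26.9 and 23.8 in HKO and 20.4 and 15.4 in controls, and Snrpg 8.01 and 5.52 in HKO and 6.03 and 4.42 in controls. The Snrpg groups overlapped and those of the other 2 did not. Snrpc had 14.8 in both HKO and 11.1 and 12.9 in control libraries, U2af1 38.9 and 37.1 in HKO and 42.9 and 48.8 in controls, and Prpf31 4.75 and 4.49 in HKO and 3.73 and 3.43 in controls. None of these 3 overlapped. Cycling-cell markers at 1 month summed to 31.8 to 41.7 TPM in HKO and 2.04 to 4.56 TPM in control libraries, with all 8 called higher. Macrophage markers summed to 34.9 to 93.2 TPM in HKO and 9.75 to 11.6 TPM in control libraries, with 8 of 8 above 0 and 2 called higher. The median log2 fold change was 0.85 over 7 endothelial and 0.84 over 6 stellate markers tested, none of them called, and 3 of 10 hepatocyte markers were called lower. Their part in the members' levels was not tested.

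The knockout effect at 1 month minus that at P10 passed for 0 members in limma, with 4 at an unadjusted p under 0.05 and 5.85% of all genes called (3.13% positive and 2.72% negative). Sf3b1, the SF3b subunit that grips the branch site, came nearest. It had 19.9 and 18.8 in HKO and 23.2 and 24.6 in control libraries at 1 month, and 22.1 and 24.4 in HKO and 19.7 and 20.2 in control libraries at P10. The order of the groups was thus opposite at the 2 ages, and the difference between the effects was -0.51 ± 0.13 on the log2 scale (limma adjusted p = 0.072). Sf3b1 is named here after its values were seen.

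In the acute model 3 members were higher and 5 lower in acHKO hepatocytes, in limma's test over 9963 genes. All 5 genes that fell belong to U2 or the tri-snRNP, which hold 11 and 8 of the 38 members. The 3 that rose are 2 U1 genes and Rbm25. This split by role was not kept under other scaling, as given below. Over all genes 19.5% were called higher, 19% lower and 38.5% in either direction, so the members called, 8 of 38, were a smaller share than over all genes. The members' median log2 fold change was -0.10 (15 of 38 above 0), against -0.0027 over all genes.

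Sf3b3 fell most. It encodes the scaffold subunit of SF3b within U2, lies on chromosome 8 at 110810239 to 110846787 (minus strand, GRCm38), and had 2.14, 3.02 and 2.38 in acHKO and 5.41, 6.36 and 6.17 in GFP libraries. The highest acHKO library was below the lowest GFP library, and the log2 fold change was -0.99 ± 0.12 (limma adjusted p = 0.00207). The call and its direction held in all 15 alternatives in which the gene was tested, with fold changes between -1.29 and -0.92. The fall was in the coding form, at 1.84, 2.73 and 2.14 in acHKO and 4.94, 5.80 and 5.68 in GFP libraries.

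The tri-snRNP genes Prpf8 and Prpf6 fell as well. Prpf8, which encodes the protein at the catalytic centre, had 13.7, 13.4 and 14.1 in acHKO and 22.6, 21.7 and 21.8 in GFP libraries. Its groups were tight and apart, with a log2 fold change of -0.64 ± 0.07 (limma adjusted p = 0.0017). Prpf6, whose product holds U5 to U4/U6, had 9.43, 11.6 and 9.06 in acHKO and 15.0, 18.3 and 18.6 in GFP libraries, which did not overlap, and fell by 0.73 ± 0.13 on the log2 scale (limma adjusted p = 0.00623).

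The other falls were in the SF3a complex, which joins SF3b to the U2 particle. Sf3a1 had 3.07, 2.38 and 2.57 in acHKO and 3.73, 5.21 and 5.10 in GFP libraries, with a log2 fold change of -0.62 ± 0.14 (limma adjusted p = 0.0137). Sf3a2 had 5.72, 6.29 and 5.34 in acHKO and 6.83, 8.22 and 7.72 in GFP libraries, with a log2 fold change of -0.34 ± 0.10 (limma adjusted p = 0.0327). Neither gene overlapped between the groups. The third subunit gene, Sf3a3, had 6.52, 6.84 and 5.85 in acHKO and 6.84, 8.46 and 8.24 in GFP libraries, a difference of -0.25 ± 0.10 that did not pass (limma adjusted p = 0.0929). The remaining U2 genes did not pass, and Sf3b1, Sf3b4, Sf3b5 and Snrpb2 had fold changes above 0.

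Among the genes that rose, Rbm25 encodes a U1-associated regulator of 5′ splice site choice and lies on chromosome 12 at 83631236 to 83683123 (plus strand, GRCm38). It had 42.6, 39.7 and 37.8 in acHKO and 24.6, 27.6 and 27.2 in GFP libraries, apart by 0.58 ± 0.09 on the log2 scale (limma adjusted p = 0.00461). Snrnp70, the U1-70K gene, had 40.2, 45.4 and 43.5 in acHKO and 22.8, 31.4 and 27.9 in GFP libraries. Its groups did not overlap, and its log2 fold change was 0.65 ± 0.13 (limma adjusted p = 0.0107). Snrpc, which encodes the U1 protein that steadies pairing with the 5′ splice site, had 18.0, 16.8 and 15.4 in acHKO and 13.0, 13.8 and 12.1 in GFP libraries, with a log2 fold change of 0.34 ± 0.09 (limma adjusted p = 0.0279).

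Scaling set the directions of part of these results. With TPM as deposited, where the median gene shifted by -0.36, 17 members were lower in acHKO and none was higher (34.8% lower, 5.93% higher and 40.7% in either direction over all genes), and Snrpc turned to -0.069. Those 17 included 5 genes of the Sm ring, 1 of the Prp19 complex and 1 of the 3′ splice site factors. With TPM scaled to nuclear protein-coding genes, 2 were higher and 1 lower, where 18.4% of all genes were called in either direction. The authors' deposited table had 2 members higher, Rbm25 and Snrnp70, and 11 lower, where 16.4% and 16.1% of all genes were, and 7 of the 8 calls above were shared in direction. The 11 lower ones included Snrpf of the Sm ring and Plrg1 of the Prp19 complex. Leaving out any 1 library left 7 to 9 members called, not always the same genes. Sf3a2 lost its call without replicate 1 or 3 of acHKO or replicate 2 or 3 of GFP, and Snrpc without replicate 1 or 2 of acHKO or replicate 1 or 3 of GFP. Without a test, 5 members were higher and 13 lower in every acHKO than in every GFP library, where 26.9% and 27.7% of all genes were.

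The roles without a called member in the acute model were the Sm ring, the 3′ splice site factors and the Prp19 complex. Their largest differences were -0.28 ± 0.12 for Snrpe, -0.22 ± 0.14 for U2af1 and -0.28 ± 0.14 for Plrg1, with limma adjusted p-values of 0.109, 0.251 and 0.167. Snrpe had 35.1, 34.6 and 30.8 in acHKO and 44.7, 43.9 and 34.9 in GFP libraries, and Plrg1 7.34, 7.35 and 6.98 in acHKO and 7.58, 11.5 and 8.28 in GFP libraries. U2af1 had 43.3, 43.9 and 33.9 in acHKO and 43.5, 53.7 and 43.9 in GFP libraries. Snrpe and U2af1 overlapped, and Plrg1 had 1 high GFP library. The mitochondrial share of TPM given above moved with the acute groups. Macrophage markers summed to 4.88 to 31.0 TPM in acHKO and 3.24 to 8.36 TPM in GFP libraries, with overlap. Endothelial markers summed to 9.67 to 22.4 TPM in acHKO and 4.91 to 13.0 TPM in GFP libraries, and stellate markers to 3.67 to 13.2 TPM in acHKO and 1.26 to 5.98 TPM in GFP libraries, also with overlap. All 3 macrophage markers, 4 endothelial markers and 1 stellate marker tested were above 0 on the log2 scale, with medians of 1.35, 0.78 and 1.73, and 1 endothelial marker was called. The part of these in the members' levels was not tested.

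**Figure D2:**
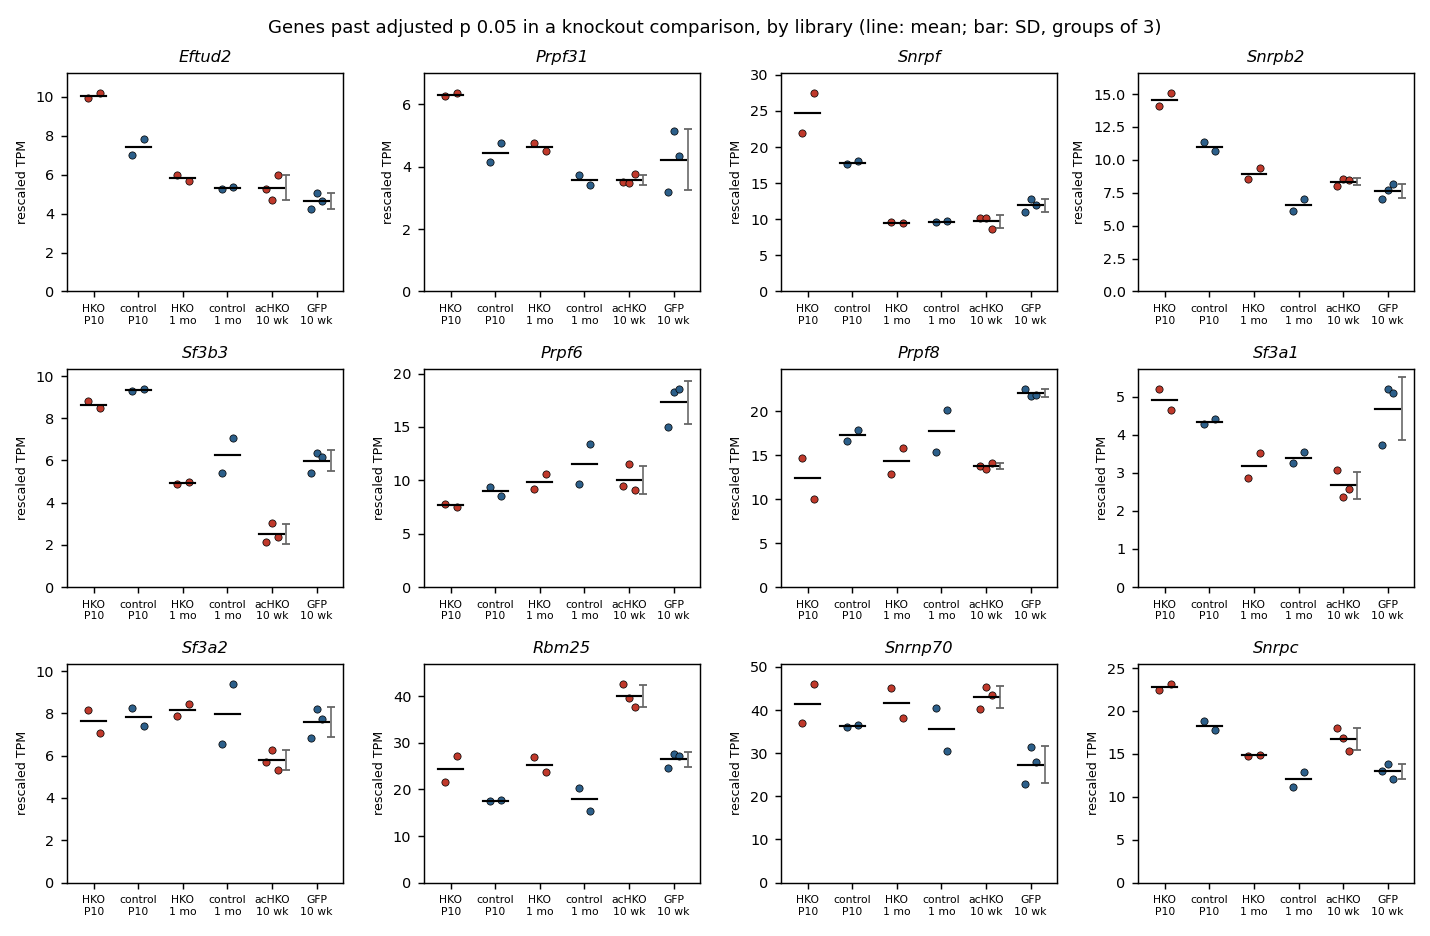
Rescaled TPM (y axis) in each of the 14 libraries for the 12 genes that passed in at least 1 knockout comparison, with knockout groups in red and controls in blue, lines at group means and bars for the SD of groups of 3. Sf3b3, Prpf6, Prpf8 and Sf3a1 are lower in all 3 acHKO than in all 3 GFP libraries, and Eftud2 and Prpf31 are higher in both HKO than in both control libraries at P10.

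The acute effect was set against the 1 month effect in a fit of all 14 libraries. It was lower for 2 members, Sf3b3 and Prpf4, with 8.1% of all genes called lower, 8.57% higher and 16.7% in either direction. The difference for Sf3b3 was -0.71 ± 0.17 on the log2 scale (limma adjusted p = 0.0199). Its level at 1 month was 4.87 and 4.95 in HKO and 5.38 and 7.09 in control libraries, apart by less than in the acute model. For Prpf4 the difference between the effects was -0.37 ± 0.11 (limma adjusted p = 0.0472). It had 2.20, 1.91 and 2.27 in acHKO and 2.65, 2.57 and 2.42 in GFP libraries, and 2.01 and 2.19 in HKO and 1.76 and 1.69 in control libraries at 1 month. The Prpf4 difference kept its call in 4 of 18 alternatives, and the Sf3b3 difference in 14 of 19. Neither Prpf4 effect passed alone, and the 2 ran in opposite directions. Neither difference passed with TPM as deposited, where 6.83% of all genes did (1.01% higher and 5.82% lower), and 0 members passed without either HKO library or without replicate 1 of the controls at 1 month, 4 without replicate 2 of those controls or replicate 1 of GFP, and 1 without replicate 1 or 2 of acHKO or replicate 3 of GFP.

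More members were called with age than with knockout in the HKO model, and the same held over all genes. Between P10 and 1 month 12 of 38 members fell and 1 rose in control hepatocytes, and 14 fell and none rose in HKO hepatocytes. Over all genes 25.8% fell and 21.9% rose in controls (47.7% in either direction), and 25% fell and 19.7% rose in HKO (44.7%). Members called in either direction were thus a smaller share than over all genes, and members that fell a larger one. The members' median log2 difference was -0.16 in controls and -0.25 in HKO, against -0.01 and -0.04 over all genes.

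The Sm ring carried the largest falls, with 5 of its 7 genes lower at 1 month in controls and 6 of 7 in HKO. Snrpd1 had 8.90 and 9.52 at 1 month and 22.6 and 23.4 at P10 in controls, with a log2 difference of -1.23 ± 0.11 (limma adjusted p = 0.000259). In HKO libraries it had 9.69 and 10.8 at 1 month and 27.7 and 32.6 at P10, a difference of -1.47 ± 0.11 (limma adjusted p = 0.000215). Levels at 1 month were thus below those at P10 by a wide margin in both genotypes. Snrpf had 9.56 and 9.69 at 1 month and 17.6 and 18.1 at P10 in controls (-0.83 ± 0.11, limma adjusted p = 0.00144). Snrpe had 40.7 and 43.7 at 1 month and 65.5 and 69.8 at P10 in controls (-0.67 ± 0.13, limma adjusted p = 0.00509). Snrpg had 6.03 and 4.42 at 1 month and 9.09 and 9.25 at P10 in controls (-0.72 ± 0.20, limma adjusted p = 0.0227). The HKO differences of these 3 genes were -1.28 ± 0.11, -1.11 ± 0.13 and -0.82 ± 0.20, and all passed. Snrpd3, another ring member, differed by -0.06 ± 0.08 in controls and did not pass in either genotype.

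Outside the ring, the genes that fell in controls were Snrpb2, Sf3a3 and Sf3b3 of U2, Snrpc and Snrpa of U1, and Eftud2 and Prpf4 of the tri-snRNP, with log2 differences from -0.67 to -0.26. In HKO the falls outside the ring were Sf3b3, Eftud2, Snrpb2, Sf3a3, Snrpc, Sf3a1, U2af2 and Prpf31, from -0.71 to -0.38. The small U2AF subunit gene U2af1 was the 1 member to rise in controls, with 42.9 and 48.8 at 1 month and 35.6 and 36.2 at P10 (0.34 ± 0.11, limma adjusted p = 0.0442). In HKO it had 38.9 and 37.1 at 1 month and 37.4 and 44.3 at P10, which overlapped. The next largest upward differences in controls were Prpf6 at 0.32 ± 0.15, Sf3b1 at 0.25 ± 0.09 and Prpf3 at 0.20 ± 0.15, and none passed. With TPM as deposited these 3 were below 0 (-0.14, -0.24 and -0.22).

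With TPM as deposited the count for age was 20 lower and none higher in controls and 34 lower and none higher in HKO, and U2af1 turned to -0.15 in controls. Over all genes that scale called 38.2% lower and 6.08% higher in controls (44.3% in either direction), and 62.2% lower and 4.46% higher in HKO (66.6%). Without replicate 1 of the P10 controls 8 members passed with age in controls, and without replicate 2, 7. Several cell types moved with age too. In controls all 8 macrophage markers, all 6 stellate cell markers tested and all 8 cycling-cell markers were called lower at 1 month. Cycling-cell markers summed to 2.04 to 4.56 TPM at 1 month and 127 to 135 TPM at P10 in controls, and macrophage markers to 9.75 to 11.6 and 263 to 281 TPM. Their part in the members' age differences was not tested, and in bulk RNA fewer cells of a type and less RNA per cell cannot be told apart.

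**Figure D3:**
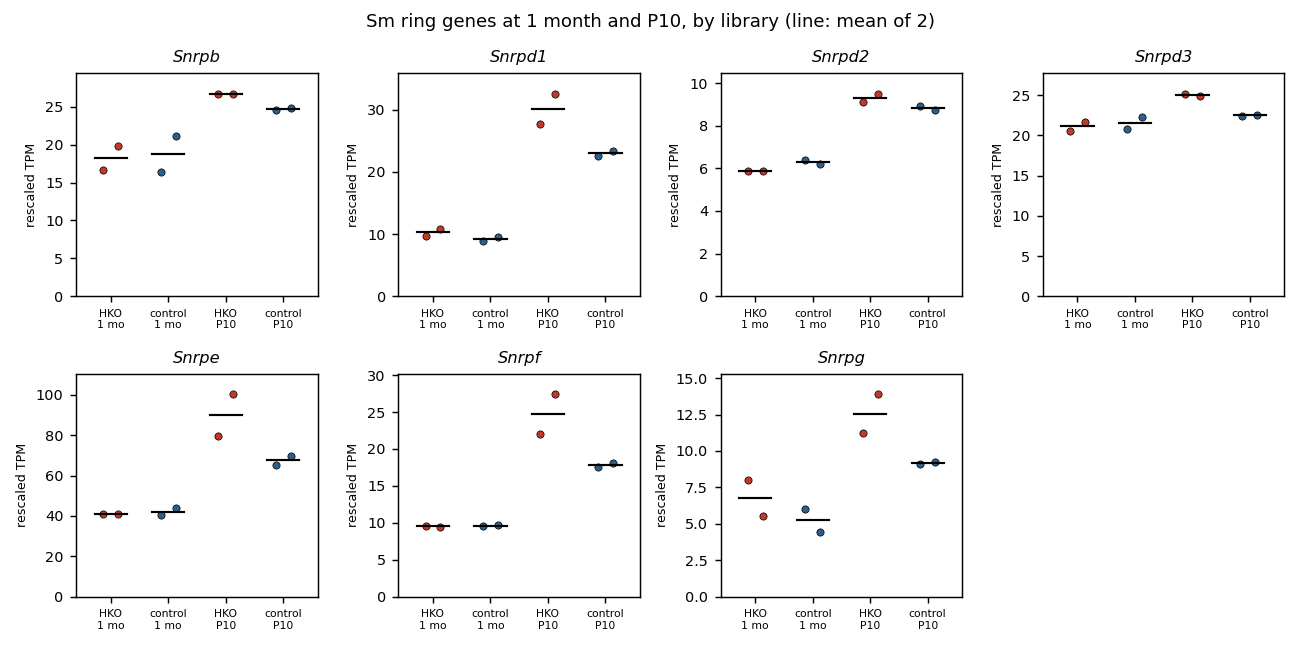
Rescaled TPM (y axis) of the 7 Sm ring genes in HKO and control libraries at 1 month and at P10, with a line at the mean of 2 libraries. All 7 genes are lower in every library at 1 month than in every library at P10, and Snrpd3 shows the least separation.

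The forms of the members' RNA were then compared through transcript shares, which do not depend on library scaling. The test was run on log2(TPM + 1) as deposited, where the added 1 leaves some dependence on scaling. All 8 genes called below kept their calls with a smaller added value. In the acute model 8 of 15 testable members changed in usage in limma's diffSplice with a share moved by at least 10 points, where 35.5% of all testable genes did. They were Sf1, Sf3b6, Rbm25, U2af2, Snrpa1, Prpf8, Rbm39 and Snrnp70, with adjusted p-values between 5.1e-05 and 0.02003. At P10 and at 1 month 0 of 19 members passed, with 0.586% and 0.234% of all genes called, and 1 member at each age had an unadjusted p under 0.05. Without replicate 2 of acHKO 5 of the members passed in the acute model. Snrnp70 lost its call without any 1 of the 6 libraries, Prpf8 without replicate 2 of acHKO or replicate 2 or 3 of GFP, and Rbm39 without replicate 2 or 3 of acHKO. Sf1, Sf3b6, Rbm25, U2af2 and Snrpa1 kept theirs each time. Without replicate 1 of HKO at P10 or replicate 2 of the controls at 1 month, 1 member passed at that age.

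In each of the 8 genes but Prpf8 the coding transcripts together lost share. Transcripts annotated as retained intron, nonsense-mediated decay or processed transcript together gained share in these genes. In Prpf8 they took 0.348% of TPM in acHKO and 0.470% in GFP libraries. Such transcripts took 47.9% of Rbm25 TPM in acHKO and 20.8% in GFP libraries, 73.3% and 50.7% of Snrpa1, 35.6% and 14.6% of U2af2, 64.3% and 45.8% of Sf1, 48.1% and 34.0% of Snrnp70, and 22.0% and 6.01% of Sf3b6. Over the 33 members with both kinds of transcript, the share was higher in all 3 acHKO than in all 3 GFP libraries for 16 and lower in all 3 for 0, where 33.3% and 10.4% of 6989 genes were. The median change was 2.74 points for the members and 1.39 points for all genes. At P10 the same count was 7 higher and 7 lower of 33 members (20.9% and 20.1% of all genes), and at 1 month 5 higher and 2 lower (17% and 11.7%).

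Rbm25 showed how a gene's level and its forms came apart. Its protein-coding transcripts had 21.7, 21.1 and 19.7 rescaled TPM in acHKO and 20.81, 20.97 and 20.94 in GFP libraries, which overlapped. Its other transcripts had 20.9, 18.6 and 18.1 in acHKO and 3.79, 6.61 and 6.30 in GFP libraries, with a wide gap. On coding transcripts alone the log2 fold change of Rbm25 was -0.0054 (limma adjusted p = 0.962), so the rise of the gene lay outside its coding form. The retained intron transcript Rbm25-216 took 20.5, 21.5 and 22.4% of the gene in acHKO and 1.64, 3.92 and 7.48% in GFP libraries, and Rbm25-206 took 15.2, 15.3 and 14.5% in acHKO and 5.21, 8.11 and 7.93% in GFP libraries. The same form was also higher in HKO than in control libraries at 1 month, at 22.7 and 18.4% against 15.5 and 10.1% for Rbm25-216, where the usage test did not pass. Snrnp70 also lost its call on coding transcripts alone (0.30, limma adjusted p = 0.0507), while Snrpc and all 5 genes that fell kept theirs.

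The 3′ splice sites that these retained intron transcripts leave unspliced are shown because they are the sequences read by U2AF, whose large subunit gene is among the 8. Each run holds 20 bases of intron and 3 of the coding exon, read from the GENCODE M21 transcript, with the AG that ends the intron in capitals.
Rbm25-206, chr12:83663959-83663981, plus strand: gtacttttgttggtttctAGaaa
Rbm25-216, chr12:83675024-83675046, plus strand: gatagtgtttttaactatAGgtg
Sf3b6-202, chr12:4826738-4826760, plus strand: gtcttctcactgttgtgcAGagg
U2af2-206, chr7:5069424-5069446, plus strand: gtctcctattccctctgcAGgag
Snrnp70-216, chr7:45380816-45380838, minus strand: ctcccccacatctgttgcAGccg
Of the 18 bases before the AG, pyrimidines made up 13, 10, 13, 15 and 14 in this order. The exon after each site is coding in the main coding transcript, and the transcripts hold 3384, 191, 63, 711 and 2366 unspliced bases before it. Whether these bases span the whole intron or take in part of an earlier exon was not checked. Rbm25-216 has the fewest pyrimidines of the 5. Sites of other introns were not counted for comparison, and a part of U2AF in these forms was not tested.

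U2af2 encodes the U2AF subunit that binds the pyrimidine tract. Its coding transcript U2af2-201 took 52.4, 46.1 and 45.2% in acHKO and 73.3, 71.2 and 74.3% in GFP libraries (diffSplice adjusted p = 0.000597). The retained intron form U2af2-206 took 13.7, 16.3 and 17.4% in acHKO and 4.96, 5.60 and 4.58% in GFP libraries. On the level scale its coding transcripts summed to 8.63, 9.33 and 8.83 in acHKO and 11.3, 13.1 and 14.2 in GFP libraries. The gene total of U2af2 differed by -0.11 ± 0.10 and did not pass, so the groups were apart for the coding form and not for the gene.

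Sf3b6, which encodes the SF3b subunit that contacts the branch adenosine, moved the same way. Its retained intron transcript Sf3b6-202 took 14.1, 19.1 and 22.9% in acHKO and 4.64, 4.61 and 1.49% in GFP libraries (diffSplice adjusted p = 0.000177). In the HKO model this transcript took 39.4 and 30.6% in HKO and 46.5 and 42.9% in control libraries at 1 month, a higher share in every library than in any acute one. Sf1 gave up the coding transcript Sf1-214, at 11.02, 10.22 and 12.37% in acHKO and 24.8, 22.0 and 22.9% in GFP libraries. Its processed transcript Sf1-213 took 28.0, 23.8 and 24.7% in acHKO and 12.3, 13.9 and 15.1% in GFP libraries. In Snrnp70 the coding transcript Snrnp70-201 took 45.2, 42.2 and 44.0% in acHKO and 58.5, 49.3 and 57.5% in GFP libraries, and the intron-retaining Snrnp70-216 took 19.2, 23.5 and 21.1% in acHKO and 13.1, 17.1 and 14.7%. Both genes thus had separate groups in each of these forms.

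Snrpa1 encodes the U2 protein A′, and an internal exon separates its coding transcript from its decay transcript. The exon is the sixth of 9 in the coding transcript Snrpa1-206, lies wholly in the coding region and is skipped in the nonsense-mediated decay transcript Snrpa1-201. It is printed from GENCODE M21, with the purine-rich motif GGAGA, of the kind SRSF1 is known to bind, in capitals.
Snrpa1 exon, chr7:66070119-66070198, plus strand: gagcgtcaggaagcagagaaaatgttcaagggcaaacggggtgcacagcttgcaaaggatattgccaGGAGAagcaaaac
Its 80 bases are not a multiple of 3, with a remainder of 2. On the exon's own strand GGAGA occurred 1 time and GAAGAA 0 times. Among 969 internal exons of 80 bases in coding transcripts, 17.4% held GGAGA and 9.91% GAAGAA. These are matches of letters only.

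Transcripts that skip the exon made up 72.0, 62.8 and 68.2% of those that skip or include it in acHKO and 50.5, 32.5 and 43.0% in GFP libraries. The mean was 67.7% ± 4.61 in acHKO and 42.0% ± 9.04 in GFP (SD, n = 3 each), with no overlap, and the usage of Snrpa1 passed with a diffSplice adjusted p of 0.00717. Skipping was 23.0 and 23.6% in HKO and 22.2 and 19.4% in control libraries at P10, and 48.4 and 46.1% in HKO and 47.9 and 46.7% in control libraries at 1 month. At P10 both HKO libraries were above both controls, the nearest at 23.0 and 22.2%, and at 1 month the groups overlapped. The usage of Snrpa1 did not pass at either age. Skipping at 1 month was above that at P10 in every library, a difference with age that was not tested. The coding transcripts of Snrpa1 had 1.87, 2.73 and 1.99 rescaled TPM in acHKO and 4.53, 5.05 and 5.59 in GFP libraries. Its other transcripts had 5.79, 5.97 and 6.21 in acHKO and 6.09, 3.63 and 6.27 in GFP libraries, which overlapped. The higher share of skipping in acHKO thus went with a lower coding form and not with clearly more of the other forms. Snrpa1-201 and Snrpa1-206 are 955 and 1248 bases long, so they differ elsewhere than in the 80-base exon. TPM of whole transcripts cannot tell those other differences from the exon.

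**Figure D4:**
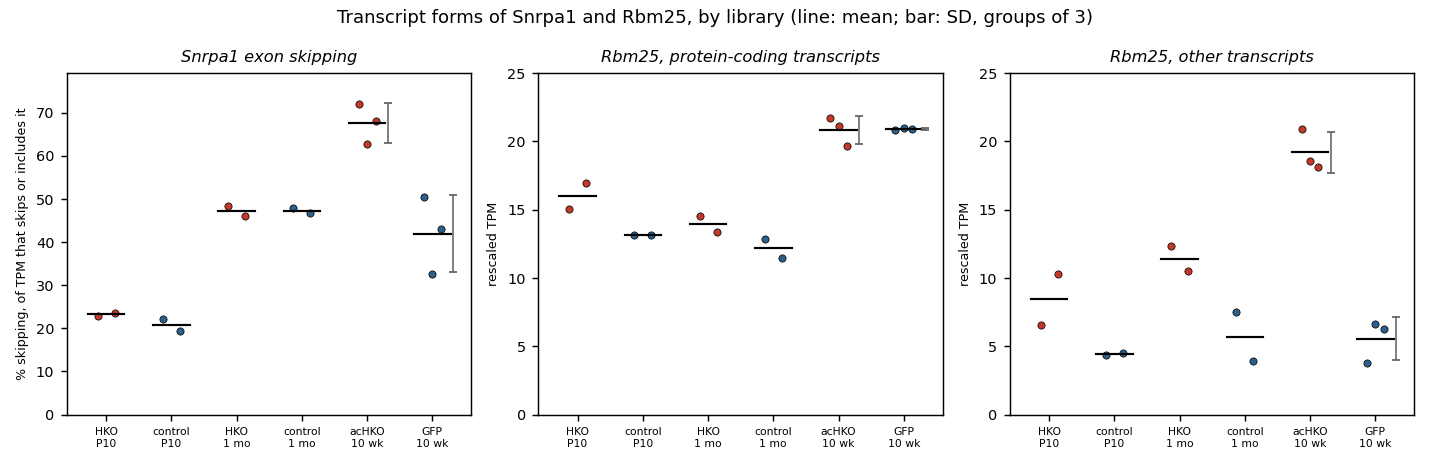
Share of transcripts that skip the 80-base Snrpa1 exon, of the TPM of transcripts that skip or include it (left, %), and rescaled TPM of Rbm25 on protein-coding (middle) and other transcripts (right), in the 14 libraries with group means and, for groups of 3, the SD. Skipping is 62.8 to 72.0% in acHKO and 32.5 to 50.5% in GFP libraries, and the Rbm25 groups separate on other transcripts and overlap on coding ones.

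In Rbm39 and Prpf8 the shares differed between coding transcripts, in calls that did not hold without some libraries. Rbm39 moved to other forms as well. Its share outside coding transcripts was 64.1% in acHKO and 55.6% in GFP libraries, without overlap. Rbm39-201 took 22.0, 10.9 and 19.8% of Rbm39 in acHKO and 33.6, 32.1 and 28.3% in GFP libraries (diffSplice adjusted p = 0.0146). Another coding transcript, Rbm39-217, took 3.95, 15.2 and 7.69% in acHKO and at most 0.403% in any GFP library, while in the HKO model it took 13.1 to 34.6% in HKO and 22.0 to 26.4% in control libraries. Prpf8-202 took 24.5, 52.9 and 22.5% in acHKO and 22.16, 14.01 and 11.70% in GFP libraries (diffSplice adjusted p = 0.0133). Replicate 2 of acHKO stood apart, and the other acHKO libraries lay close to the highest GFP library. Without it the shift was 7.57 points, against 17.4 points with it. In the HKO model Prpf8-202 took 52.2 to 65.1% in HKO and 54.5 to 63.6% in control libraries, so its share differed more between the models than between knockout and control.

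**Figure D5:**
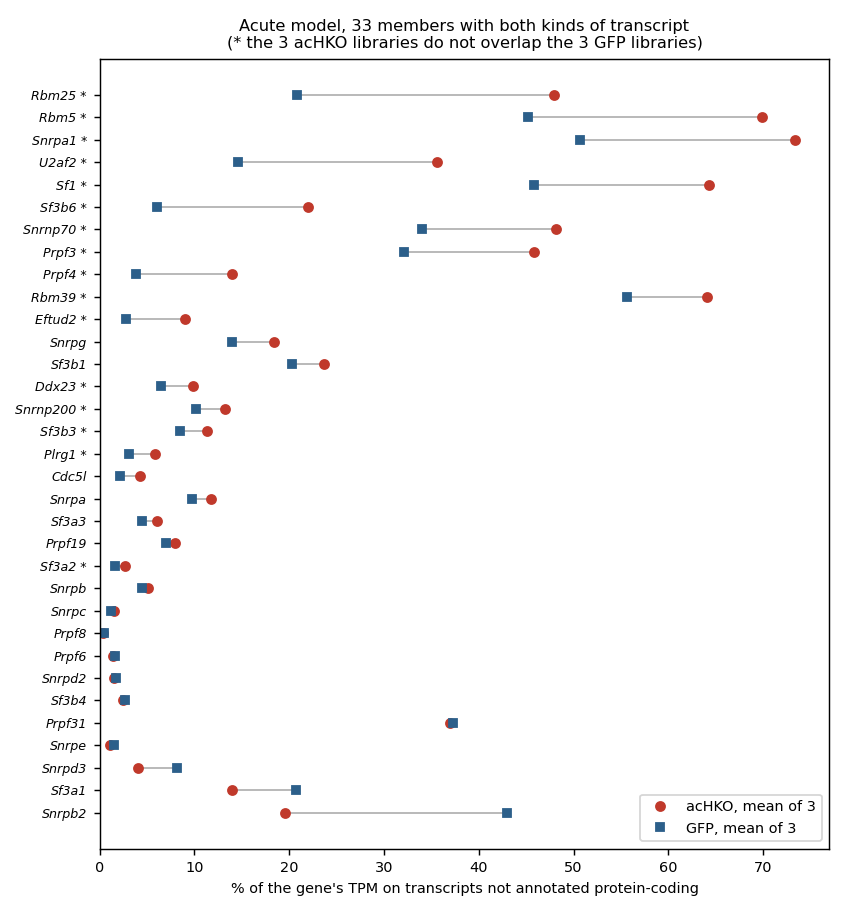
Share of each gene's TPM on transcripts not annotated as protein-coding (x axis, %) in acHKO (red circles) and GFP (blue squares), means of 3 libraries, for the 33 members with both kinds of transcript, ordered by the change. Asterisks mark the 16 genes whose acHKO libraries all lie above their GFP libraries; Snrpb2 has the largest change the other way, with overlap.

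Members without a usage call moved both ways in their share outside coding transcripts. Over all 33 members with both kinds of transcript, 24 had a higher mean share in acHKO. The share was lower in all 3 acHKO than in all 3 GFP libraries for 0 members. The largest shift against the trend was in Snrpb2, whose share outside coding transcripts averaged 19.5% in acHKO and 43.0% in GFP libraries, overlapping, with a diffSplice adjusted p of 0.0827. Its retained intron transcript Snrpb2-203 took 36.4% in replicate 1 of acHKO and was listed at 0 in the others. Rbm5, an RNA-binding protein that acts on 3′ splice site pairing, had 69.8% in acHKO and 45.1% in GFP libraries without overlap, but it was not among the 15 members testable for usage in the acute model. It is named here after its values were seen.

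Promoters of the members were searched for 2 motifs chosen from general knowledge, the ETS-family core CCGGAAG and the E-box CACGTG, on both strands from 250 bases before to 50 bases after the RefSeq start on GRCm38.p6. Of 38 members 31 matched a promoter by symbol. CCGGAAG was present in 14 of these 31 (45.2%), in 9.93% of 27025 genes and in 21.6% of 8335 genes that averaged 1 TPM or more. CACGTG was present in 2 of 31 (6.45%), in 8.09% of all and in 12.1% of the expressed genes. The stretches around CCGGAAG (or CTTCCGG, its reverse) are shown for the 4 of the 5 genes that fell in acHKO whose promoter holds it, with the match in capitals and each read along the strand of its gene.
Sf3b3, chr8:110847017-110847041, minus strand: cggtgggcgCTTCCGGgcttgcgag
Prpf6, chr2:181601331-181601355, plus strand: agctctctaCTTCCGGtgcgcgggt
Sf3a1, chr11:4160338-4160362, plus strand: agggcgggaCCGGAAGtgctcccgc
Sf3a2, chr10:80798650-80798674, plus strand: cctttgctcCCGGAAGggatcgctt
The Prpf8 window holds no match. Snrpc, which rose in acHKO, and Snrpb2, which was higher in HKO, hold the motif as well, so it was present in genes that moved both ways. The match is a description of the letters.

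Spliceosome genes outside the 38 were counted from lists made with the same knowledge. Of 59 other spliceosome genes, 2 were higher and 1 lower in HKO at P10, 0 higher and 1 lower at 1 month, and 8 higher and 10 lower in acHKO. Over all genes 16.8%, 15.9% and 38.5% were called in these comparisons. Lsm6, a subunit of the ring on U6 RNA, was the gene that was lower each time, with log2 fold changes of -0.74 ± 0.09, -0.77 ± 0.09 and -1.44 ± 0.12 in the P10, 1 month and acute comparisons (limma adjusted p = 0.00433, 0.00308 and 0.000986). Higher in acHKO with the smallest p-values were Lsm5, of the same ring, at 0.75 ± 0.08, the tri-snRNP-associated Prpf38b at 0.82 ± 0.12 and Lsm7 at 0.53 ± 0.08, and the next lower ones were Dhx15, the helicase that takes spliceosomes apart, at -0.51 ± 0.08 and the U1-associated Luc7l3 at -0.57 ± 0.10. Their limma adjusted p-values were at most 0.00679. Of 9 minor spliceosome genes, 0 passed at P10, 1 was higher at 1 month and 2 were higher and 1 lower in acHKO. Of 20 genes of snRNP assembly, 1 was higher at P10 (Smn1, 0.46 ± 0.12, limma adjusted p = 0.04), 1 was higher and 1 lower at 1 month, and of the 18 tested in the acute model 4 were higher and 3 lower.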

How the data were processed

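RNA of 14 mouse hepatocyte libraries in 6 groups was analysed. The authors deposited transcript abundances in TPM. Per the submitters' processing notes, bcl2fastq 2.17.1.14, kallisto 0.46.0 and DESeq2 were used with GRCm38 (mm10); no source names the annotation release. Per the file headers, the authors' deposited gene tables give per gene a log2 fold change with its error, a test score and p-values; they are quoted only where named, and how they were counted per gene is not stated. The 137767 transcripts were summed to 54446 genes, of which 53229 identifiers matched GENCODE M21, which gave locations; positions are left out for Snrpd1, Sf3b2 and U2af1. TPM keep no depth, so no count model was fitted, and annotated transcripts alone are seen. The overlap of near-identical or antisense genes was not resolved, and kallisto shares reads between transcripts of a gene by estimation.

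TPM were divided by 1 set of median-ratio factors from 10853 genes, and log2(value + 1) was tested with limma 3.58.1 (trend, two-sided) in R 4.3.3, keeping genes that averaged 1 TPM or more. Fold changes on this scale understate the change of low genes. The 8 HKO-model libraries shared a fit with 4 residual degrees of freedom, the 6 acute libraries had their own with 4, and all 14 were used for the acute effect minus the 1 month effect, with 8. Usage of transcripts was compared by diffSplice of limma on log2(TPM + 1) as deposited, for transcripts of at least 1 TPM and 5% of their gene. Scripts were tested on simulated data. The members and lists were chosen with earlier results of these data known. Genes described with values per library are Srsf1, each member called, the largest difference of each role without a call, the 3 highest and lowest levels, the 4 largest age changes each way in controls, each member called in usage and members called in the difference of effects. The non-coding share, the Snrpa1 exon, the splice sites and the promoter motifs were chosen after seeing the data. Alternatives covered scaling, pseudocount, filters, coding transcripts alone, 1 fit of all libraries, no trend, a replicate block and leaving out each library.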

Additional observations from a re-analysis of the deposited data

Results flagged for a closer look

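The knockout effect differed between the acute model and 1 month for 2 members in a test of the difference itself. For Sf3b3 the acute effect was lower than the 1 month effect by a log2 difference of -0.71, and for Prpf4 by -0.37. The Sf3b3 difference kept its call in 14 of 19 alternatives and the Prpf4 difference in 4 of 18. The models differ in age, in the route of deletion and in index scheme, which cannot be told apart from the timing of the loss.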

How the results depend on the processing

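Of the 10 counts, 94 values under alternatives stayed within 1.5 times the reported count and 44 moved further. With TPM as deposited the calls were 2 at P10, 0 at 1 month, 20 and 34 with age in controls and HKO, 17 in the acute model and 0 for the acute effect minus the 1 month effect. With TPM scaled to nuclear protein-coding genes they were 24, 15, 26, 30, 3 and 0, with all calls higher at P10 and at 1 month. Over all genes 35.3, 32, 56.4, 57.6, 18.4 and 5.38% were called in either direction, shares that were not split by direction. The difference of the acute and 1 month effects gave 1 call with quantile normalization, without the filter and with at least 5 TPM. Without the filter the calls were 2 at P10 and 0 at 1 month. At 1 month coding transcripts alone, no trend and the replicate block each gave 0, and 1 fit of all 14 libraries gave 3, and 13 in the acute model. The block left the other counts within 1.5 times. Same-numbered knockout and control libraries were not shown to be pairs. Correlations of their deviations were 0.0088 at P10, 0.23 at 1 month and 0.0040, 0.26 and 0.28 in the acute model. With 3 libraries a group, not every library correlated best with its own number. A minimum share change of 20 points left 2 usage calls in the acute model.

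Leaving out each replicate gave 0 to 2 calls at P10, 0 to 2 at 1 month, 7 to 9 in the acute model, 7 to 14 and 11 to 14 with age in controls and HKO, 0 to 0 for the difference of the 1 month and P10 effects, and 0 to 4 for the acute effect minus the 1 month effect. For usage it gave 0 to 1, 0 to 1 and 5 to 8. A group of 2 then has a lone library, assumed to vary like the others.

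Values of named genes turned sign in 18 cases, of which 5 had passed. U2af1 with age in controls was -0.15 with TPM as deposited and -0.063 with nuclear protein-coding scaling. Snrpc in the acute model was -0.069 with TPM as deposited. On coding transcripts alone Snrpb2 at 1 month was -0.15 and Rbm25 in the acute model was -0.0054. The 13 that had not passed were as follows. With age in controls Prpf6, Sf3b1 and Prpf3 were -0.14, -0.24 and -0.22 with TPM as deposited and -0.064, -0.15 and -0.16 with nuclear protein-coding scaling, and Prpf3 was -0.094 on coding transcripts alone and -0.0065 without replicate 1 of the 1 month controls, the lowest of a range up to 0.41. With age in HKO Prpf6 was -0.40 with TPM as deposited and -0.011 with nuclear protein-coding scaling, Prpf3 was 0.060 with the block, and U2af1 was 0.023 without replicate 2 of HKO at P10, the highest of a range down to -0.22. U2af1 at 1 month was 0.092 with nuclear protein-coding scaling. Of the other values, 626 kept direction and side of the threshold, 103 lost the call and 30 gained one. The cause was not tested. Small groups and unknown depth limit what low genes such as Prpf4 and Sf3b5 can show.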
